A study of Homo sapiens with 12 samples.

Results

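The genes described here are 10 components of transforming growth factor β (TGF-β) and activin signaling: the ligands TGFB1 and TGFB2, the receptors TGFBR1, TGFBR2 and ACVR1B, and the SMAD proteins SMAD2, SMAD3, SMAD4, SMAD6 and SMAD7. They were chosen by gene name and not by a cut on a measured value, but with earlier results of these data known. All 10 are among the 58735 genes of the expression table. To examine the effect of 77-39, an inhibitor of the mitochondrial deacetylase SIRT3, RNA was sequenced from 2 ovarian tumor cell lines, KGN and COV434, both given as wild type and as granulosa cell tumor cells. The 4 groups, with 3 libraries each, were KGN untreated, KGN with 77-39, COV434 untreated and COV434 with 77-39. The labels give 72 h and 10 um/ml for 77-39, where the unit does not say whether a mass or a molar concentration was meant. The same treatment text stands on the untreated libraries, which were taken as untreated from their titles. The labels do not say whether the 3 libraries of a group came from separate cultures, so the p-values measure only the spread between these libraries.

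TGF-β ligands bind the type II receptor TGFBR2, which recruits and phosphorylates the type I receptor TGFBR1. Activins use other type II receptors and the type I receptor ACVR1B (ALK4). Both type I receptors phosphorylate SMAD2 and SMAD3, which join SMAD4 and enter the nucleus, while the inhibitory SMADs, SMAD6 and SMAD7, are induced by the pathways they dampen. In the ovary, activin and related ligands are known regulators of granulosa cells.

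Expression was given as FPKM, the fragments on a gene per kilobase of its length, scaled to the size of the library. FPKM times gene length, divided by what 1 read amounts to in that library, gave whole reads in 100% of the genes above 0 (tolerance 0.05 reads), between 15547851 and 18280415 per library. Tests were two-sided and made with limma on log2(FPKM + 1) for genes that averaged 1 FPKM or more, p-values were adjusted by Benjamini-Hochberg for every gene tested, and a gene was called at an adjusted p under 0.05. On this scale the change of low genes is understated. Mitochondrially encoded genes took 7.3% to 8.81% of reads in the KGN-labelled libraries and 7.71% to 13.5% in the COV434-labelled ones, where the highest share was that of 77-39 replicate 1.

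Several markers went against the line names and others did not. FOXL2, a granulosa cell transcription factor that KGN cells are known to express in mutant form, had 2 reads over the 6 libraries labelled KGN and lay between 11.5 and 14.0 FPKM in the COV434-labelled ones. SMARCA2 and SMARCA4, SWI/SNF ATPases that COV434 cells have been described to lack, lay at 4.51 to 6.48 and 6.51 to 12.6 FPKM in the COV434-labelled libraries. In the KGN-labelled libraries, SMARCA2 did not exceed 0.00870 FPKM and SMARCA4 lay at 2.25 to 2.60 FPKM. Of 10 granulosa markers, 2 exceeded a mean of 1 FPKM in the KGN-labelled libraries and 3 in the COV434-labelled ones, and FSHR, the receptor of follicle-stimulating hormone, was at 0 in both. WT1, a transcription factor of granulosa cells among others, went the other way, at 45.9 to 61.4 FPKM in the KGN-labelled libraries and 0 in the COV434-labelled ones, as did HSD3B2, a steroidogenic enzyme, at 0.231 to 0.435 FPKM and 0. The summed FPKM of the 10 markers was 51.8 to 67.8 under the KGN label, most of it WT1, and 21.4 to 26.3 under the COV434 label. AMH and INHA were higher under the COV434 label, at 8.24 and 4.75 FPKM against 4.55 and 1.06 FPKM (means of the untreated libraries). The fibroblast markers COL1A1 and DCN were at most 0.131 and 2.38 FPKM in the KGN-labelled libraries and reached 14.8 and 11.9 FPKM in the COV434-labelled ones, and their part in the differences between the lines was not tested. All 12 libraries are concerned, so no comparison could be given without them. The line names below are those of the labels, and comparisons of 77-39 with untreated cells stay within one label.

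The untreated libraries of the 2 labels were compared first. Of the 9 members tested, 6 were called lower in the KGN-labelled libraries and none higher. The comparison called 70.2% of all genes, 36.9% as lower and 33.3% as higher. In 8 of the 9 the FPKM of the labels did not overlap, which held for 74.2% of all genes. The largest difference was in TGFBR2, the type II receptor, and the smallest were in TGFBR1, SMAD4 and ACVR1B, which did not pass the test. TGFB2 was under the filter of 1 FPKM. TGFBR2 is counted among the 6, but it passed that filter only through the COV434-labelled libraries, so the filter set its direction.

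TGFBR2 (ENSG00000163513) lies on the plus strand of chromosome 3 of GRCh38, from 30606502 to 30694142. It was at 0.344, 0.361 and 0.248 FPKM in the untreated KGN-labelled libraries, from 23 to 30 reads. In the COV434-labelled ones it was at 18.5, 15.4 and 16.4 FPKM, from 1233 to 1444 reads. The groups were far apart: the mean was 0.318 ± 0.0606 FPKM (SD, n = 3) against 16.8 ± 1.59 (SD, n = 3), a ratio of 52.8. The log2 difference was -3.75 (SE 0.11). Since the filter set the direction, the p-value of this fit lends no support and is left out. With no filter the log2 difference was the same (adjusted p = 9.32e-10 in limma). In bulk RNA, fewer cells that express a gene and less RNA per cell cannot be told apart. TGFBR2 was called lower under all 22 alternative settings, but those with a filter share the limit given above.

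The promoter of TGFBR2 is shown because this gene differed most between the labels. Those of TGFB1 and SMAD6 are shown because the 2 genes varied together between the libraries (r = 0.80), as described below. SMAD2 with TGFBR1 (r = 0.95) and SMAD7 with TGFB1 (r = 0.81) varied together more closely. A window of 300 bases was read from RefSeq (GRCh38.p14) for all 10 members, reaching from 250 bases before to 50 bases after the start nearest to the start of the gene in the table. Capitals mark matches on either strand to GTCTAGAC (the palindromic SMAD binding site), TGANTCA (the AP-1 site) and GGGCGG (the GC box). Among all 35116 windows, 0.202% hold GTCTAGAC, 7.71% TGANTCA and 45.0% GGGCGG.
TGFBR2, chr3:30606351-30606650, plus strand: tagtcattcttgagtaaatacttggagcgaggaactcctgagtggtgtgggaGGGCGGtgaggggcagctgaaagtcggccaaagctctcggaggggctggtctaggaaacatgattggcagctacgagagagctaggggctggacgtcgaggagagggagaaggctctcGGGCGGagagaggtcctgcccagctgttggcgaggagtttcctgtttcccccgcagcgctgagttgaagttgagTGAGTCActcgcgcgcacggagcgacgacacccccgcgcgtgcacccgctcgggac
TGFB1, chr19:41353873-41354172, minus strand: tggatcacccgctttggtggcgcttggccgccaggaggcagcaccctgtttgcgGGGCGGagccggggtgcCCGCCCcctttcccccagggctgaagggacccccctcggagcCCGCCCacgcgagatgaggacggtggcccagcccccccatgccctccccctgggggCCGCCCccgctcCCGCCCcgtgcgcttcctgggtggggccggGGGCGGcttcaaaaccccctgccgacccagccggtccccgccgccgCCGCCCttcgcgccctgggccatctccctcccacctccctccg
SMAD6, chr15:66701986-66702285, plus strand: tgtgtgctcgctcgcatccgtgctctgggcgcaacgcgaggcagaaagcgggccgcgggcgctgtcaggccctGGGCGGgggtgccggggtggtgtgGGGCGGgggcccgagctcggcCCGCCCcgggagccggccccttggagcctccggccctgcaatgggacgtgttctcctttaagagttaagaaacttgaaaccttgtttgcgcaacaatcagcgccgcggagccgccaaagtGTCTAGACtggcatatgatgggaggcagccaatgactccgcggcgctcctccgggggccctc
The TGFBR2 window holds 1 TGANTCA match, beginning 6 bases before the start, and 2 GC boxes. The TGFB1 window holds 7 GC boxes and neither of the other motifs. The SMAD6 window holds 1 GTCTAGAC, beginning 12 bases before the start, and 3 GC boxes. The windows not printed hold neither GTCTAGAC nor TGANTCA. They hold 3 GC boxes in SMAD2, 5 in SMAD3, 2 in SMAD4 and 3 in ACVR1B, and none in SMAD7, TGFB2 and TGFBR1. Some of these windows lie away from the start of the gene in the table. The start used was 1839 bases from it in SMAD3, 1819 in SMAD4, 1087 in SMAD7 and 899 in TGFB2. For these 4 genes, a motif missing from the window may still stand at the gene start, which was not read. A match describes letters in the window, and binding was not measured.

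TGFB1 (ENSG00000105329, minus strand of chromosome 19, 41301587 to 41353911) encodes the ligand. It was at 11.1, 10.9 and 10.9 FPKM in the untreated KGN-labelled libraries and at 35.7, 34.4 and 37.1 FPKM in the COV434-labelled ones. The ranges did not overlap, and the ratio of the means was 3.26. The log2 difference was -1.62 (SE 0.11, adjusted p = 7.10e-08 in limma). On the opposite strand, TGFB1 overlaps HNRNPUL1 and CCDC97, at a mean of 37.7 and 12.8 FPKM over the 12 libraries. The kit named in the labels does not mark strand, and how reads on overlapping genes were assigned is not stated in the sources used here. The second ligand, TGFB2 (ENSG00000092969, plus strand of chromosome 1, 218346235 to 218444619), was at 0.0733, 0.0455 and 0.0986 FPKM in the untreated KGN-labelled libraries, from 4 to 10 reads. It had 0 reads in the COV434-labelled ones, where 3 reads would have given at most 0.0389 FPKM, a limit that covers counting error only.

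TGFBR1 (ENSG00000106799, plus strand of chromosome 9, 99104038 to 99154192), the type I receptor that pairs with TGFBR2, was at 5.56, 5.85 and 6.0 FPKM in the untreated KGN-labelled libraries and at 6.34, 7.18 and 6.51 FPKM in the COV434-labelled ones. The log2 difference was -0.17 (95% interval -0.43 to 0.08, adjusted p = 0.205 in limma). ACVR1B (ENSG00000135503, plus strand of chromosome 12, 51951667 to 51997078) was at 4.19, 5.08 and 5.40 FPKM in the untreated KGN-labelled libraries and at 4.64, 4.02 and 4.41 FPKM in the COV434-labelled ones. Its groups overlapped, with a log2 difference of 0.13 (95% interval -0.08 to 0.35, adjusted p = 0.243 in limma). Within a library, the FPKM of TGFBR1 was 16.2, 16.2 and 24.1 times that of TGFBR2 in the untreated KGN-labelled libraries and 0.342, 0.465 and 0.398 times in the COV434-labelled ones. The type I receptor was thus the more abundant per length in every library of one label and the less abundant in every library of the other, also with 77-39 (9.84 to 16.4 times, and 0.280 to 0.362 times).

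**Figure D1:**
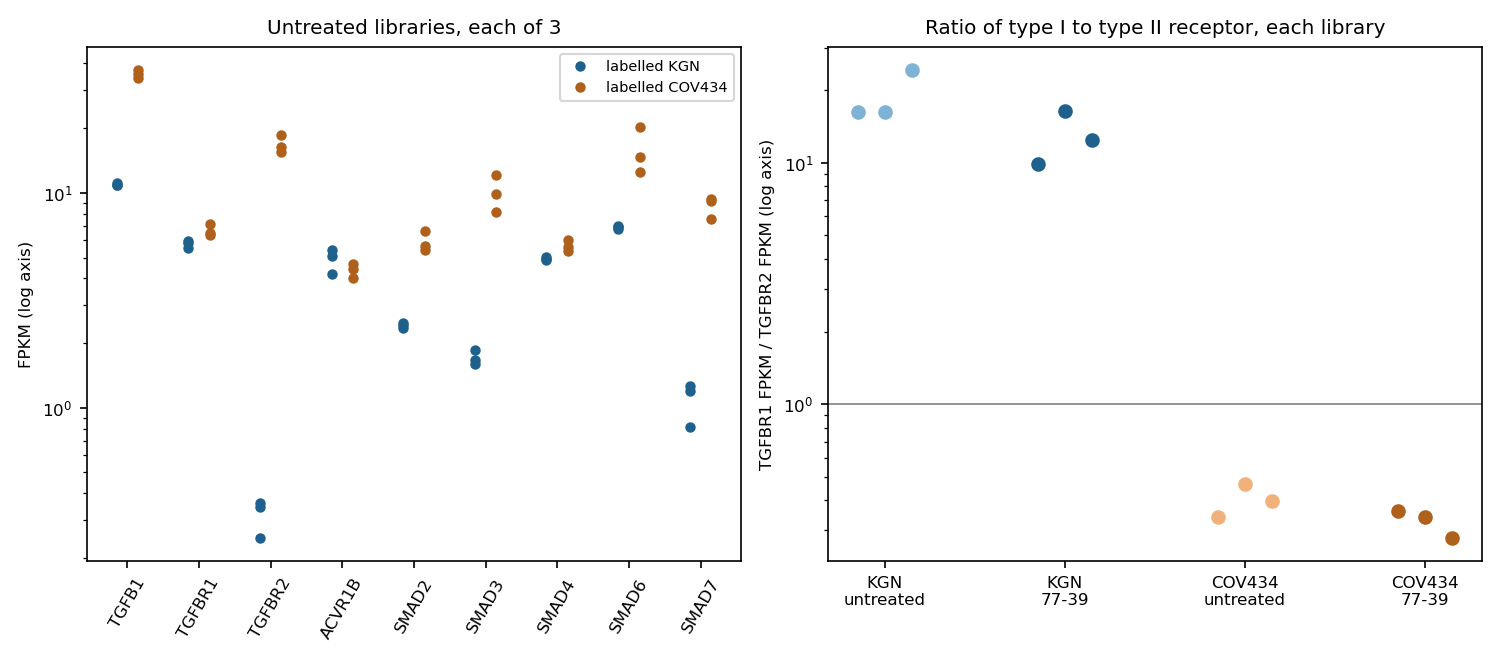
FPKM of 9 members in each of the 3 untreated libraries per label (left, log axis) and FPKM of TGFBR1 divided by that of TGFBR2 in each of the 12 libraries (right, log axis, grey line at 1). TGFBR2 sits at 0.248 to 0.361 FPKM in the KGN-labelled libraries and at 15.4 to 18.5 in the COV434-labelled ones, while TGFBR1, ACVR1B and SMAD4 sit close together.

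Among the receptor-activated SMADs, SMAD3 (ENSG00000166949, plus strand of chromosome 15, 67063763 to 67195195) was at 1.60, 1.85 and 1.66 FPKM in the untreated KGN-labelled libraries and at 12.1, 8.16 and 9.86 FPKM in the COV434-labelled ones. The ratio of the means was 5.88, with a log2 difference of -2.01 (SE 0.12, adjusted p = 2.81e-08 in limma). SMAD2 (ENSG00000175387, minus strand of chromosome 18, 47808957 to 47931146) was at 2.35, 2.47 and 2.42 FPKM in the untreated KGN-labelled libraries and at 5.44, 6.65 and 5.69 FPKM in the COV434-labelled ones. Its ratio was 2.46, and its log2 difference was -1.02 (SE 0.12, adjusted p = 1.01e-05 in limma). The table gives SMAD2 a length of 36366 bases, and its coding transcripts range from 527 to 34526 bases, so its level relative to other genes depends on that length. With this length, SMAD3 was below SMAD2 in every library labelled KGN, at 0.590 to 0.748 times its FPKM, and above it in every library labelled COV434, at 1.23 to 2.77 times.

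SMAD4 (ENSG00000141646, plus strand of chromosome 18, 51028394 to 51085045), the common partner of the receptor-activated SMADs, was at 5.04, 4.85 and 4.91 FPKM in the untreated KGN-labelled libraries and at 5.38, 6.02 and 5.58 FPKM in the COV434-labelled ones. The log2 difference was -0.17 (95% interval -0.34 to 0.00, adjusted p = 0.0758 in limma). SMAD4 and TGFBR1 kept no direction under rescaling: with the libraries scaled by the recovered reads their log2 differences were 0.01 and 0.00. Under the same scaling ACVR1B was called higher in the KGN-labelled libraries (log2 difference 0.30, adjusted p = 0.0189 in limma). With the trend with GC content removed, SMAD4 and TGFBR1 were called lower there (adjusted p = 0.00435 and 0.00679), and SMAD4 also without COV434 untreated replicate 1 (adjusted p = 0.0489). The totals by which the authors divided were 1.07 to 1.10 times the reads on genes in the KGN-labelled libraries and 0.911 to 0.978 times in the COV434-labelled ones.

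Of the inhibitory SMADs, SMAD7 (ENSG00000101665, minus strand of chromosome 18, 48919853 to 48952052) was at 1.20, 1.27 and 0.818 FPKM in the untreated KGN-labelled libraries and at 9.38, 7.52 and 9.20 FPKM in the COV434-labelled ones. The ratio of the means was 7.94 (log2 difference -2.21, SE 0.11, adjusted p = 3.32e-09 in limma). SMAD6 (ENSG00000137834, plus strand of chromosome 15, 66702228 to 66782848) was at 6.79, 6.98 and 6.92 FPKM in the untreated KGN-labelled libraries and at 20.2, 12.5 and 14.7 FPKM in the COV434-labelled ones. The ratio of the means was 2.29 (log2 difference -1.06, SE 0.15, adjusted p = 6.50e-05 in limma), and the 3 libraries labelled COV434 were spread more widely than those labelled KGN. SMAD6 lay above SMAD7 in every library, with SMAD7 at 0.118 to 0.185 times SMAD6 in the KGN-labelled libraries and at 0.464 to 0.626 times in the COV434-labelled ones.

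The order of the levels per length also differed. In the untreated KGN-labelled libraries it was TGFB1, SMAD6, TGFBR1, SMAD4, ACVR1B, SMAD2, SMAD3, SMAD7, TGFBR2 and TGFB2, and of these neighbors the ranges of SMAD4 and ACVR1B alone overlapped. In the untreated COV434-labelled libraries it was TGFB1, TGFBR2, SMAD6, SMAD3, SMAD7, TGFBR1, SMAD2, SMAD4, ACVR1B and TGFB2. There the ranges of TGFBR2 and SMAD6, of SMAD3 and SMAD7, of TGFBR1 and SMAD2, and of SMAD2 and SMAD4 overlapped. TGFB1 led in all 4 groups, and TGFB2 was last in all 4.

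The response to 77-39 was then compared within each label. In the KGN-labelled libraries, TGFBR1 and SMAD2 rose by 23.2% and 20.1% in mean FPKM, and no member was called lower. Thus 2 of the 8 members tested were called, both higher, in a comparison that called 34% of all genes and 17.6% as higher. TGFBR2 and TGFB2 were under the filter.

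TGFBR1 was at 7.15, 7.32 and 6.98 FPKM with 77-39, above each of the 3 untreated libraries given above. The mean was 7.15 ± 0.170 (SD, n = 3) against 5.80 ± 0.221 FPKM (SD, n = 3), with a log2 fold change of 0.26 (SE 0.05, adjusted p = 0.00670 in limma). It was called in 17 of 19 alternatives, including each library left out in turn. It was not called when all 12 libraries were fitted together (adjusted p = 0.223), nor when the trend with GC content was removed and the replicate number entered as a block (adjusted p = 0.0999), where the fold change was 0.15.

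SMAD2 was at 2.96, 2.99 and 2.75 FPKM with 77-39, also above each untreated library. Its log2 fold change was 0.19 (SE 0.06, adjusted p = 0.0445 in limma), and it was called in 5 of 19 alternatives only. Without any one of the libraries KGN untreated 1, 2 or 3 or KGN 77-39 1 or 2 its adjusted p was 0.0870 to 0.137, and without KGN 77-39 replicate 3 it was 0.0470. The longest transcripts of SMAD2 and TGFBR1 have a GC content of 40.2% and 39.0%, and with the trend with GC content removed the fold change of SMAD2 was 0.10.

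TGFBR2 was at 0.726, 0.446 and 0.559 FPKM with 77-39, from 37 to 62 reads, again above each of the untreated libraries. The mean was 1.82 times that of untreated cells. With the filter lowered to 0.1 FPKM its log2 fold change was 0.26 (SE 0.09, adjusted p = 0.123 in limma), so this difference did not pass the test at this depth. TGFB2 was at 0.0535, 0.0661 and 0.0813 FPKM, within the range of the untreated libraries.

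The other 6 members tested overlapped between treated and untreated KGN-labelled libraries, so that 2 of 8 did not overlap, both higher, beside 49.7% of all genes and 26.3% as higher. TGFB1 was at 10.4, 8.82 and 11.1 FPKM with 77-39, a log2 fold change of -0.11 (95% interval -0.30 to 0.07). SMAD6 was at 6.68, 6.33 and 6.80 FPKM (log2 fold change -0.06, interval -0.16 to 0.05), and SMAD7 at 1.23, 1.14 and 1.26 FPKM (0.08, interval -0.19 to 0.35). These intervals leave room for modest changes in either direction. SMAD3 was at 1.92, 1.76 and 1.63 FPKM (log2 fold change 0.03, interval -0.16 to 0.22) and SMAD4 at 4.79, 5.11 and 4.37 FPKM (-0.05, interval -0.19 to 0.10). ACVR1B was at 5.36, 5.51 and 5.28 FPKM (log2 fold change 0.12, interval -0.07 to 0.31), with treated libraries that lay closer together than the untreated ones.

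**Figure D2:**
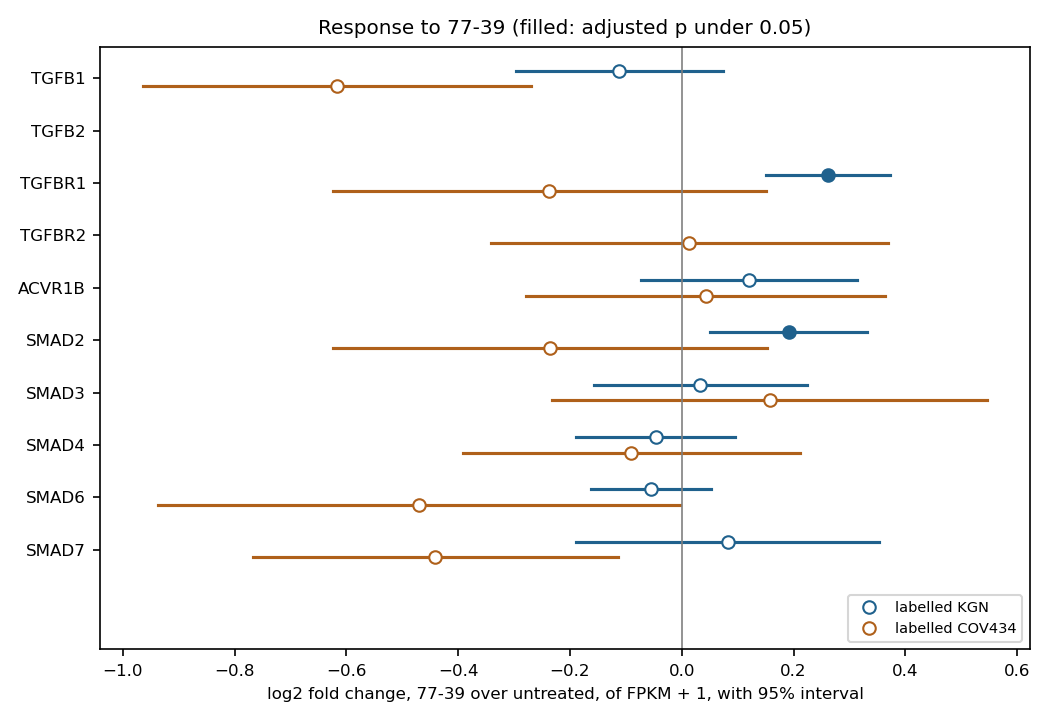
log2 fold change of FPKM + 1 with 77-39 over untreated, with its 95% interval, for each member tested in the KGN-labelled libraries (blue) and COV434 (orange). Filled points, TGFBR1 at 0.26 and SMAD2 at 0.19, had an adjusted p under 0.05, and the intervals in the COV434-labelled libraries are the wider ones for every member tested in both.

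In the COV434-labelled libraries, no member was called among the 9 tested, in a comparison that called 0.0415% of all genes. At an unadjusted p under 0.05, 3 members were lower and none higher, where 8% of all genes passed, 4.49% as lower and 3.52% as higher. These were TGFB1, SMAD7 and SMAD6. The SE of a member's log2 fold change was 0.13 to 0.20 here and 0.05 to 0.11 under the KGN label. TGFB1 and SMAD7, 2 of the 9, did not overlap between treated and untreated libraries, beside 14.4% of all genes and 8.16% as lower.

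TGFB1 was at 26.8, 21.3 and 21.2 FPKM with 77-39, below each of the untreated libraries. The mean was 23.1 ± 3.18 (SD, n = 3) against 35.7 ± 1.37 FPKM (SD, n = 3), or -35.4%, with a log2 fold change of -0.62 (SE 0.15, unadjusted p = 0.00338, adjusted p = 0.240 in limma). In 1 fit of all 12 libraries both labels share 1 spread, and 480 genes were called in place of 5. There the adjusted p of TGFB1 was 0.00947. With the replicate number as a block it was 0.0861.

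SMAD7, the inhibitor that TGF-β itself induces, was at 6.40, 5.91 and 6.06 FPKM with 77-39, also below each untreated library. Its mean was 6.12 ± 0.252 (SD, n = 3) against 8.70 ± 1.03 FPKM (SD, n = 3), with a log2 fold change of -0.44 (SE 0.14, unadjusted p = 0.0143, adjusted p = 0.411 in limma). In 1 fit of all 12 libraries, with the spread shared between the labels, its adjusted p was 0.0455. With the replicate number as a block it was 0.190. SMAD6 was at 13.1, 9.88 and 10.0 FPKM with 77-39, and the highest of these lay above the lowest untreated library. Its log2 fold change was -0.47 (SE 0.20, unadjusted p = 0.0489, adjusted p = 0.623 in limma), and with the block the adjusted p was 0.155.

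SMAD2 was at 5.93, 4.90 and 3.93 FPKM with 77-39 in the COV434-labelled libraries (log2 fold change -0.24, 95% interval -0.62 to 0.15), and TGFBR1 at 7.01, 5.10 and 4.64 FPKM (-0.24, interval -0.62 to 0.15). Treated replicate 1, the library with the highest mitochondrial share, was the highest treated library in 8 of the 9 members tested, all but ACVR1B, and in 41.5% of the 12060 genes tested. Without it the log2 fold change was -0.72 for TGFB1, -0.47 for SMAD7, -0.59 for SMAD6, -0.36 for SMAD2 and -0.39 for TGFBR1, and no member was called (adjusted p = 0.233 to 0.894 in limma). TGFBR2 was at 19.4, 15.0 and 16.6 FPKM (log2 fold change 0.01, interval -0.34 to 0.37), SMAD3 at 12.3, 10.4 and 10.9 FPKM (0.16, interval -0.23 to 0.55) and SMAD4 at 5.53, 5.08 and 5.16 FPKM (-0.09, interval -0.39 to 0.21). ACVR1B was at 4.12, 4.46 and 4.99 FPKM (log2 fold change 0.04, interval -0.28 to 0.36). TGFB2 had 1 read in treated replicate 3 and 0 in the other libraries. The intervals of the 6 members tested reach to over 0.2 in at least 1 direction, so that none of them can be called unchanged.

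**Figure D3:**
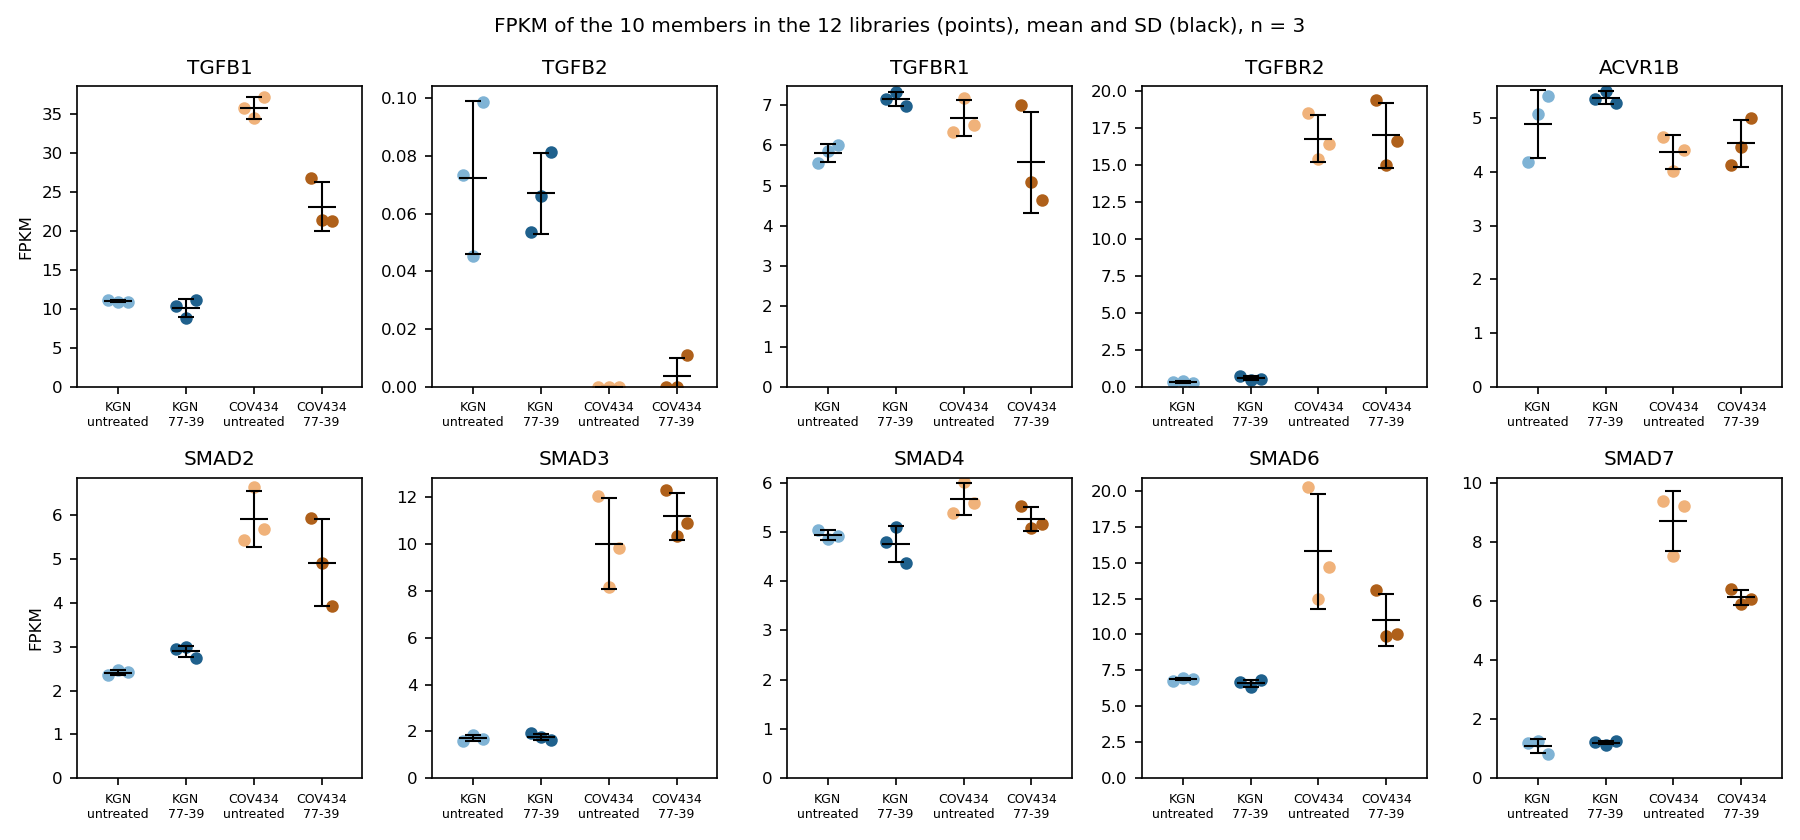
FPKM of each member (linear axes from 0) in each of the 12 libraries as points, with the mean and SD of the 3 libraries of a group in black. TGFBR1 and SMAD2 with 77-39 lie above the untreated KGN-labelled libraries, and TGFB1 and SMAD7 with 77-39 lie below the untreated COV434-labelled libraries.

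Whether the 2 labels responded differently was tested by the interaction of line with treatment in a fit of all 12 libraries. None of the 9 members tested was called, where 3.6% of all genes were, 1.85% with the higher response under the KGN label. At an unadjusted p under 0.05, 4 members had a higher response in the KGN-labelled libraries, where 18% of all genes passed in either direction and 9.59% in this one. The difference in log2 fold change was 0.52 for SMAD7 (SE 0.15, adjusted p = 0.0869 in limma) and 0.50 for TGFB1 (SE 0.15, adjusted p = 0.102 in limma). It was 0.50 for TGFBR1 (SE 0.17, adjusted p = 0.136 in limma) and 0.43 for SMAD2 (SE 0.17, adjusted p = 0.197 in limma). Without COV434 77-39 replicate 1, TGFBR1, SMAD2 and TGFB1 were called (adjusted p = 0.0108, 0.0425 and 0.0229), and without COV434 untreated replicate 2, SMAD7 was (adjusted p = 0.0455). With the trend with GC content removed and the replicate block, SMAD6, SMAD7 and TGFB1 were called (adjusted p = 0.0139, 0.0259 and 0.0345).

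Members also varied together from library to library. After centering log2(FPKM + 1) on the mean of each label over the 12 libraries, Pearson's r was 0.95 between SMAD2 and TGFBR1, 0.81 between SMAD7 and TGFB1, 0.80 between SMAD6 and TGFB1 and 0.79 between SMAD6 and SMAD7. These values describe libraries that share treatment, depth and base composition. Over 13127 genes, the gene most like each member by this measure was ANKRD28 for SMAD2 (r = 0.98), HECTD2 for TGFBR1 (0.97) and ANKFY1 for SMAD3 (0.96). For TGFB1 it was TLL1 (0.94), for SMAD6 TNS4 (0.99), which was at 0 in every library labelled KGN, and for SMAD7 COASY (0.91). For TGFBR2 it was EBLN3P (0.92), for SMAD4 CEP78 (0.87) and for ACVR1B RF00019 (0.85).

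Around the members, 123 further genes of the pathway were counted in 7 lists by role. In the untreated comparison, 17 genes of the list of TGF-β and activin targets were tested. Of these, 14 were lower in the KGN-labelled libraries and 3 higher, beside 36.9% and 33.3% of all genes. The median log2 difference was -2.23 beside -0.02 over all genes. Over the libraries of 1 label alone, 10 genes of this list passed the filter under KGN and 17 under COV434. Genes that passed only through the label where they are high had their direction set by the filter. The count and the median thus do not measure a direction of the whole list. The same holds for genes of the other lists near 0 under 1 label. CYR61, a matricellular protein, was at 2.57 ± 0.294 FPKM (SD, n = 3) in the KGN-labelled libraries and 74.5 ± 4.63 (SD, n = 3) in the COV434-labelled ones. SNAI2, a transcription factor of the epithelial to mesenchymal transition, was listed at 0 and at 15.2 ± 0.948 FPKM (SD, n = 3). The opposite held for CTGF, another matricellular protein, at 12.1 ± 0.788 against 1.27 ± 0.304 FPKM (SD, n = 3 each), and TAGLN, an actin-binding protein, at 16.4 ± 0.331 against 0.540 ± 0.189 FPKM (SD, n = 3 each).

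Of the other receptors 4 of 9 were higher in the untreated KGN-labelled libraries and 3 lower, a share near the 70.2% of all genes called. BMPR1B, a type I receptor for bone morphogenetic proteins (BMPs), was at 43.2 ± 0.0448 FPKM (SD, n = 3) in the KGN-labelled libraries and at 0.255 ± 0.0540 (SD, n = 3) in the COV434-labelled ones, and the BMP co-receptor NEO1 was likewise higher under the KGN label. The pseudoreceptor BAMBI and the TGF-β co-receptor ENG were lower, at 0 against 13.2 FPKM and at 0.518 against 8.31 FPKM. SMAD1, SMAD5 and SMAD9 carry BMP signals in place of SMAD2 and SMAD3. All 3 were called higher in the KGN-labelled libraries, by 0.24, 0.67 and 1.71 on the log2 scale, beside 33.3% of all genes. SMAD9, at 0.194 FPKM in the untreated COV434-labelled libraries, passed only through the KGN label, so the filter set its direction. Of 11 other ligands 8 were lower and 2 higher, beside 36.9% and 33.3% of all genes. Over the libraries of 1 label alone, 7 ligands passed the filter under KGN and 9 under COV434. BMP2, BMP6, INHBB and INHA passed only through the COV434-labelled libraries, and BMP5 and GDF11 only through the KGN-labelled ones. The filter set the direction of these genes, so the counts do not measure a direction of the ligands as a whole. BMP2 and BMP6 were at 0.147 and 0.00647 FPKM against 70.8 and 25.7 FPKM, while GDF11 and BMP5 were the higher ones.

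Proteins that bind or store ligands differed in all 12 tested, 6 in each direction, beside 33.3% of all genes higher and 36.9% lower. FSTL3, an activin antagonist, was at 8.26 ± 0.294 FPKM (SD, n = 3) in the untreated KGN-labelled libraries and at 319 ± 18.4 (SD, n = 3) in the COV434-labelled ones. FSTL1 was likewise lower under the KGN label, while THBS1, which can activate latent TGF-β, and LTBP1, which binds it, were higher, at 158 against 6.19 FPKM and at 11.1 against 0.0110 FPKM. Of 24 intracellular regulators, 9 were higher and 8 lower, again near the 70.2% of all genes. PMEPA1 and the ubiquitin ligase NEDD4L, which restrain SMAD2 and SMAD3, were lower, and the deubiquitinase USP9X and the kinase MAP3K7 were higher. Of 8 BMP target genes, 3 were higher and 3 lower, with HEY1 and ID4 among the higher and ATOH8 and GATA2 among the lower.

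With 77-39 in the KGN-labelled libraries, 22 of the 68 list genes tested were called higher and 11 lower, beside 17.6% and 16.4% of all genes. Among receptors, 3 of 8 were called higher and none lower. NEO1 and BMPR1A, a BMP type I receptor, rose by 0.35 and 0.32 on the log2 scale, and ACVR1 by 0.28. SMAD5 rose by 0.16. Among ligands, GDF15, a stress-induced member of the family, went from 16.5 ± 1.03 to 28.8 ± 3.62 FPKM (SD, n = 3 each), INHBE, an activin subunit, rose by 0.34 and GDF11 fell by 0.41 on the log2 scale.

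Of the TGF-β and activin target genes in the KGN-labelled libraries, 4 of 10 were called higher and 2 lower. Beside this and the counts below stand 17.6% of all genes called higher and 16.4% called lower. KLF10, a transcription factor induced early by TGF-β, rose by 0.67 and CYR61 by 0.53 on the log2 scale, while JUNB fell by 0.46 and TAGLN fell by 0.45. Of the BMP targets, ID1 and ID2, inhibitors of differentiation, rose by 1.03 and 0.79, and HEY1 fell by 0.20, of 7 tested. Among 11 ligand-binding proteins 3 were called higher and 3 lower, with NOG and TWSG1 among the former and LTBP4 and FSTL3 among the latter. Of 22 intracellular regulators 6 were called higher and 4 lower. Among them SKIL, a corepressor of SMADs, rose by 0.45 and STRAP, which assists SMAD7, by 0.33, while TGIF2, another corepressor, fell by 0.45 and TAB1 fell by 0.40.

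In the COV434-labelled libraries none of the 77 list genes tested was called with 77-39, and 6 were higher and 10 lower at an unadjusted p under 0.05, beside 3.52% and 4.49% of all genes. With the replicate number as a block, 3 of the 77 were called, all lower: JUNB (adjusted p = 0.0390), BMP6 (adjusted p = 0.0393) and BHLHE40, a transcriptional repressor (log2 fold change -0.80, adjusted p = 0.0393 in limma), beside 0.721% of all genes. Without the block, the smallest p of each list belonged to BMP6 (log2 fold change -0.96, adjusted p = 0.108 in limma), JUNB (-0.77, adjusted p = 0.136), HEY1 (-0.64, adjusted p = 0.180), LTBP4 (0.65, adjusted p = 0.180), NEDD4L (-0.30, adjusted p = 0.695), BAMBI (0.19, adjusted p = 0.862) and SMAD1 (0.13, adjusted p = 0.917). In the interaction, 8 of 84 list genes were called, 5 with the higher response in the KGN-labelled libraries, beside 3.6% of all genes and 1.85% in this direction. With the block 13 were called, 9 in this direction, beside 4.28% of all genes. Among the 13 were BMP6 and BMP2, at most at a mean of 0.0136 and 0.225 FPKM under the KGN label, and TGFBI, at 0 there. For genes this low under the KGN label the interaction mostly restates the COV434 fold change, so they do not show that the labels responded differently. BMP6 was also among the 8.

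**Figure D4:**
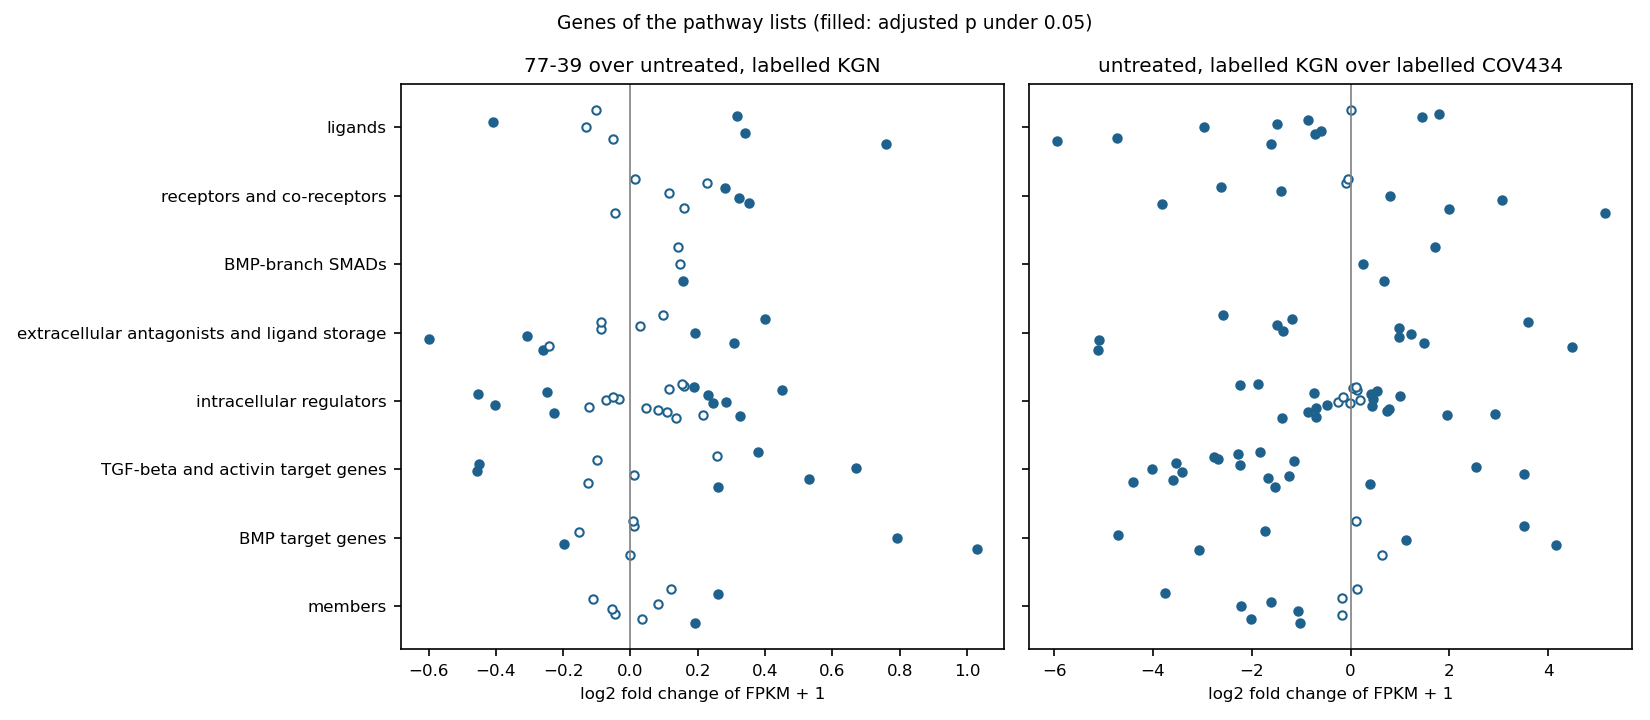
log2 fold change of FPKM + 1 for each tested gene of the 7 pathway lists and for the members (1 point per gene, spread vertically within a row only to separate them), with 77-39 over untreated in the KGN-labelled libraries (left) and in untreated KGN-labelled libraries over the COV434-labelled ones (right). Filled points had an adjusted p under 0.05, as 14 TGF-β and activin target genes left of 0 and 3 right of it do in the right panel.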

How the data were processed

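The authors extracted total RNA with TRIzol. The labels name an Illumina kit that does not mark strand, HISAT2 2.0.5 and mouse builds, and their extraction text mentions retina, while the gene coordinates of the table match GENCODE 29 on GRCh38 for 58735 of 58735 genes. The authors deposited FPKM per gene and library. Reads were recovered as FPKM times gene length, divided by the value of 1 read in that library. Each label was fitted alone, and both labels together for the untreated comparison and the interaction, with limma 3.58.1 (R 4.3.3, lmFit, eBayes with a trend) on log2(FPKM + 1), filtered at a mean of 1 FPKM. The fits were tested on simulated data. Members, lists and tests were chosen with earlier results of these data known. Named were all members, up to 2 genes per list and direction with the smallest p among those called without overlap (otherwise the 1 with the smallest p), and the gene most correlated with each member. ACVR1, SMAD1 and BHLHE40 were added after their values were seen.

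Replicate numbers stand in the labels. Deviations of same-numbered libraries correlated at 0.400, 0.474 and 0.166 in COV434, which meets the rule for pairing (every correlation over 0.1), and at -0.0164 to -0.0190 in KGN, which does not. The fits are without the block unless it is named. An exact permutation test of 3 against 3 libraries cannot give a p below 0.1, so none is reported. Alternatives covered pseudocount, filter, scaling, voom, trends with length and GC content, the block, 1 common fit and each library left out. Removal of the GC trend was added after seeing the data. Figures were drawn with matplotlib 3.10.9 in Python 3.11.15.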

Additional observations from a re-analysis of the deposited data

Results flagged for a closer look

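No member met a rule for a closer look, and groups of 3 libraries were not screened for outlying samples. Among the named genes of the pathway lists, 6 passed the interaction test of limma. Subtracting the COV434 response from the KGN response, the log2 values differed by 1.44 for ID1 (adjusted p = 0.0453) and 1.21 for KLF10 (adjusted p = 0.00114). The value was 0.80 for NOG (adjusted p = 0.0404), -0.74 for TAGLN (adjusted p = 0.0235) and -1.25 for LTBP4 (adjusted p = 0.00144). The sixth gene, BMP6, had a value of 0.97 (adjusted p = 0.0122). It was at most at a mean of 0.0136 FPKM in the libraries labelled KGN, and its mean under the COV434 label was 25.7 FPKM untreated and 12.7 FPKM with 77-39. At that level BMP6 could not show a fall under the KGN label, so its value restates the COV434 fold change (-0.96) and does not show that the labels responded differently. In KLF10, NOG, TAGLN and LTBP4, the 3 treated libraries were all above the untreated ones under one label and all below them under the other. TAGLN was at means of 0.540 and 0.872 FPKM in the untreated and treated COV434-labelled libraries, under the filter of 1 FPKM. Its rise there was not tested alone, and it entered the interaction through the KGN-labelled libraries. KLF10 went from 4.85 to 8.32 FPKM in the libraries labelled KGN and from 12.9 to 8.61 FPKM in those labelled COV434, and LTBP4, which binds latent TGF-β, from 18.6 to 11.9 and from 8.94 to 14.6 FPKM (means, n = 3 each).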

How the results depend on the processing

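In the libraries labelled KGN, 1 member was called higher in place of 2 with no filter, the filter lowered to 0.1 FPKM, the replicate block, median-ratio scaling, the length trend removed (with or without the block) or the GC trend removed, and 0 with the GC trend removed and the block or in 1 fit of all 12 libraries. Leaving out 1 library gave 1 to 2. All genes called there numbered 4307, but 2763 with the GC trend removed and the block, 1015 in 1 fit, and 2751 to 4128 without 1 library, the fewest without KGN 77-39 replicate 2. For COV434 the 5 genes called became 3 (pseudocount 0.1), 3 (filter at 0.1), 1 (no filter), 25 (voom), 87 (replicate block), 28 (length trend), 136 (length trend, block), 20 (GC trend), 188 (GC trend, block), 480 (1 fit), 965 (unadjusted p) and 1 to 7 without 1 library, and members lower 2 (1 fit) and 3 (unadjusted p). In the untreated comparison, 1 member was higher with no filter (TGFB2) or under scaling by recovered reads, voom or the GC trend removed (ACVR1B). Interaction genes numbered 472, but 261 with voom, 815 with the GC trend removed and the block, 2367 unadjusted and 126 to 975 without 1 library, the most without COV434 77-39 replicate 1, and members 2 with the GC trend removed, 3 with the block as well, 4 unadjusted and 0 to 3 without 1 library. The block alone changed no member's call in COV434 or the interaction, and raised the pathway list genes called from 0 to 3 and from 8 to 13. The causes were not tested.

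Log2 values that changed sign belonged to members that were not called. In KGN these were TGFB1 (0.00409) and SMAD6 (0.0368) with the GC trend removed (same with the block), SMAD3 with the length trend removed (-0.0210, same with the block) and, over the fits without 1 library, SMAD3 (-0.00473 to 0.0716), SMAD4 (-0.0907 to 0.00261) and SMAD7 (-0.0169 to 0.143). In COV434, without 1 library, they were TGFBR2 (-0.0795 to 0.0943) and ACVR1B (-0.0174 to 0.0961). In the untreated comparison they were TGFBR1 (0.00303, 0.00992) and SMAD4 (0.00613, 0.0134) under scaling by recovered reads and voom. In the interaction they were SMAD3 (-0.253 to 0.00214), SMAD4 (-0.000443 to 0.0929) and ACVR1B (-0.0109 to 0.141) without 1 library, and SMAD4 with the length trend (-0.0989) or GC trend removed (-0.120). The 6 members lower in the untreated libraries labelled KGN kept direction and call in all 22 alternatives. For TGFBR2, any filter set that direction. Depth limits TGFBR2 and TGFB2 in KGN, where 23 to 62 and 4 to 10 reads were counted.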
